A study of Homo sapiens with 16 samples.

Results

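CIART encodes CHRONO, and the peaks called in this gene or within 10 kb of it on either side were taken from all 13 peak lists of the study. They numbered 18 of 58586 peaks and came from 10 of the 13 lists. CIART lies on chromosome 1 at 150282554 to 150287093 (hg38, plus strand, 4540 bases), so the window ran from 150272554 to 150297093. The data are chromatin immunoprecipitation and sequencing libraries of U2OS, a human osteosarcoma cell line, and of U2OS-CHRONO, a line of the same cell type. U2OS-CHRONO gave 6 libraries precipitated for BMAL1, and U2OS gave 6 as well, all from cells treated with 200 nM dexamethasone, which brings the clocks of a culture into a common phase. Cells were collected every 4 h at times labelled 0, 4, 8, 12, 16 and 20 h, starting 4 h before the trough of a luciferase reporter of the BMAL1 promoter. U2OS-CHRONO also gave 1 library precipitated for Myc, with no time or treatment label, whose target the series design names as Myc-CHRONO. The sources used here do not state how U2OS-CHRONO was made, which CHRONO sequence it carries or whether it is 1 clone, and 3 input libraries were not analysed here.

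BMAL1 and its partner CLOCK bind a short DNA element, the E-box, in front of clock genes and activate them. PER and CRY proteins, and CHRONO as well, are known as repressors of this pair, and their own genes are under its control, so that the clock closes a feedback loop. CIART is thus both a known target of BMAL1 and, in U2OS-CHRONO, the gene whose product gives the line its name.

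Each line had 1 library per time. The 6 times common to both lines were used as pairs, and p-values reflect only the variation over those times. The lists held 2429 to 9391 peaks in U2OS-CHRONO and 337 to 6012 peaks in U2OS for BMAL1, and 2487 for Myc. At every time the U2OS-CHRONO list was the longer one. Read depth is unknown, so a site missing from a list may have been bound below the detection of that library. A peak call also cannot tell fewer cells with a bound site from weaker binding in each cell.

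The sequence in front of CIART is shown because the start-site peaks lay over it. It holds the 250 bases before the first base of the gene, chr1:150282304-150282553 on the plus strand (RefSeq, GRCh38.p14), with each E-box of the letters CACGTG in capitals.
CIART upstream: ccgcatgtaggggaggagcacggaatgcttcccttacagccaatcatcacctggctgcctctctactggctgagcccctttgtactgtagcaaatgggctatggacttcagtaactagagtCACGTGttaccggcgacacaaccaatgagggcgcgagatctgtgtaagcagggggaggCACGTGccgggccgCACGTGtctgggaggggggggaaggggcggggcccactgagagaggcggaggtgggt

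The 3 E-boxes began 129, 71 and 57 bases before the gene. The outer one and its neighbour had 52 bases between them, and the 2 nearest to the gene had 8. CACGTG reads the same on both strands. Of 15843 protein-coding genes with a sequence in the RefSeq promoter table, 7.84% had at least 1 CACGTG in the same 250 bases, 0.776% had 2 or more and 0.139% (22 genes) had 3 or more. A pair with 8 or fewer bases between its members stood in 7 of these promoters. CIART was the single member of the core clock list with more than 1, among 19 with a sequence. PER1, BHLHE40, BHLHE41 and TEF had 1 each, and the other 14 had none in this stretch. Searched on both strands, CACGTT, an E-box variant present in 4.67% of promoters, TTATGTAA, the D-box bound by DBP and its relatives (0.587%), and TAGGTCA, the element of REV-ERB and ROR receptors (1.33%), had no match in the CIART stretch.

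Peaks at CIART fell into 4 separate sites. They were 1 site over the start of the gene and 3 inner sites, called here the first, middle and last inner site. The start site spanned 150282245 to 150282681 and reached from 309 bases before to 127 bases after the first base. The first inner site spanned 150283023 to 150283882, which is 469 to 1328 bases into the gene, and 341 bases without a peak separated it from the start site. The middle inner site (150284376 to 150284755) held 1 peak. The last inner site spanned 150286276 to 150287036, which is 3722 to 4482 bases into the gene, so it ended inside the gene. No peak of any list lay elsewhere in the window.

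**Figure D1:**
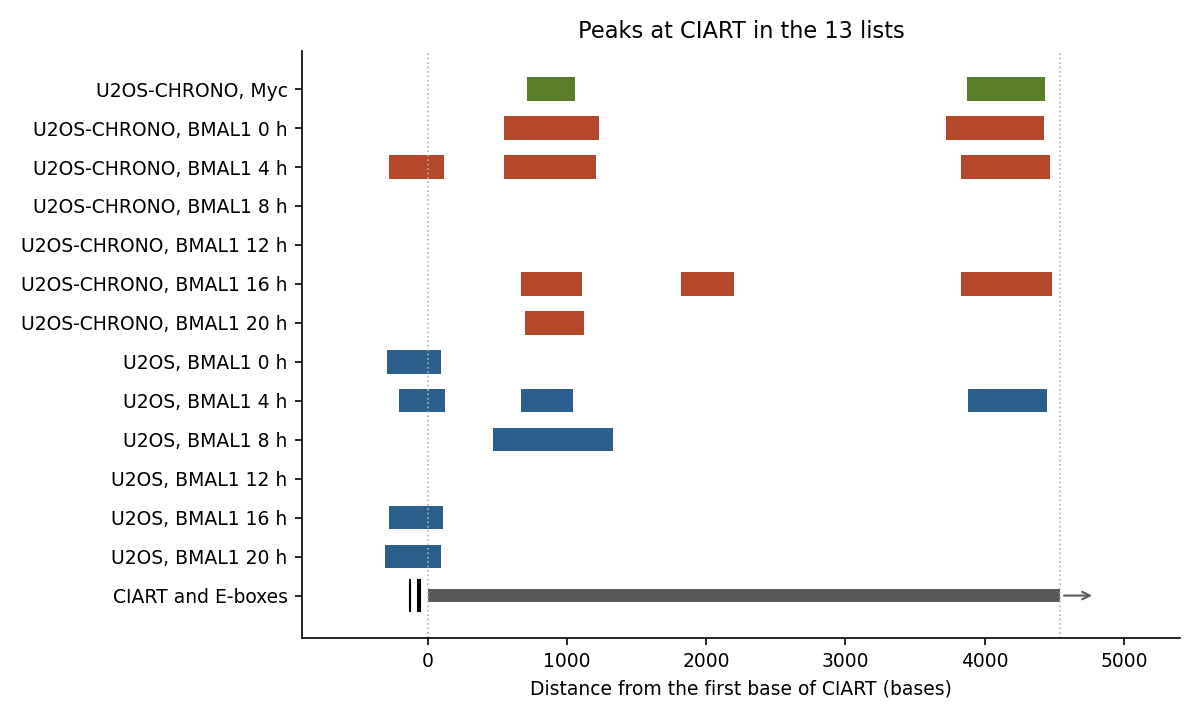
Peaks at CIART in each of the 13 lists (rows), drawn to scale against the distance from the first base of the gene in bases; the grey bar is the gene and the black ticks are its 3 E-boxes. Peaks over the first base appear at 1 U2OS-CHRONO and 4 U2OS times, and the first and last inner sites line up across the U2OS-CHRONO, Myc and 4 h U2OS rows.

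A BMAL1 peak covered the first base of CIART at 1 U2OS-CHRONO time, 4 h, and at 4 U2OS times, 0, 4, 16 and 20 h. At 8 and 12 h neither line had one. Over all protein-coding genes with a known start, a peak over the first base was called at these 6 times in 5.47%, 6.62%, 1.39%, 2.12%, 7.2% and 5.23% of genes in U2OS-CHRONO. In U2OS the shares were 3.05%, 3.89%, 0.322%, 0.991%, 2.06% and 3.57%. Both lines thus had their fewest such genes at 8 and 12 h. In U2OS these were the only times without a start-site peak at CIART. U2OS-CHRONO also lacked one at 0, 16 and 20 h, when its shares were 5.47%, 7.2% and 5.23%. A gene had such a peak at 4 or more U2OS times in 1.29% of cases.

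The 5 start-site peaks were alike in place and size. They were 332 to 405 bases wide and their right edges varied by 14.0 bases (SD, n = 5 peaks) around a point 109 bases into the gene. The 4 h peak of U2OS-CHRONO was 392 bases wide and was centred 78.5 bases before the gene. In U2OS the centres lay 98, 38.5, 83.5 and 107 bases before it at 0, 4, 16 and 20 h. All 5 covered the 3 E-boxes, and their centres lay within 44.7 bases of the mean E-box position. None of the 13 peaks at the other sites covered an E-box of this stretch, and the nearest left edge, in the 8 h U2OS list, was 520 bases beyond the last one.

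The authors' score ranks each peak within its own list, and ranks from lists of different lengths do not measure a change. The start-site peak of U2OS-CHRONO at 4 h had a score of 78.7 and ranked 4145 of 8240, with 49.7% of its list below it. The U2OS peak had a score of 120 at 0 h (rank 778 of 3397) and 157 at 4 h (rank 850 of 5287). It had 207 at 16 h (rank 232 of 2794) and 183 at 20 h (rank 674 of 6012). In all 4 U2OS lists it thus stood above 77.1% or more of the peaks, and it was the only CIART peak at 0, 16 and 20 h.

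Peaks inside the gene came from both lines. The first inner site had a BMAL1 peak at 4 U2OS-CHRONO times, 0, 4, 16 and 20 h, and at 2 U2OS times, 4 and 8 h. In U2OS-CHRONO its scores were 104, 133, 158 and 51.6, which stood above 67.3%, 74.3%, 83.3% and 4.85% of their lists. In U2OS its scores were 73.1 at 4 h, above 48.2% of the list, and 85.2 at 8 h, above 75.1% of it. The 20 h peak of U2OS-CHRONO was thus near the bottom of its list, and the lines overlapped in these positions.

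The last inner site had a BMAL1 peak at 3 U2OS-CHRONO times, 0, 4 and 16 h, and at 1 U2OS time, 4 h. Its scores were 107, 179 and 203 in U2OS-CHRONO, above 68.3%, 82.7% and 88.9% of their lists, and 190 in U2OS, above 88.3%. It was the highest CIART peak in each of these 4 lists. Its peaks were 1.61 times to 1.97 times the median width of their BMAL1 lists, whereas start-site peaks were 0.99 times to 1.22 times that median. The middle inner site was called in U2OS-CHRONO at 16 h alone, with a score of 94.0, above 63.0% of the list.

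**Figure D2:**
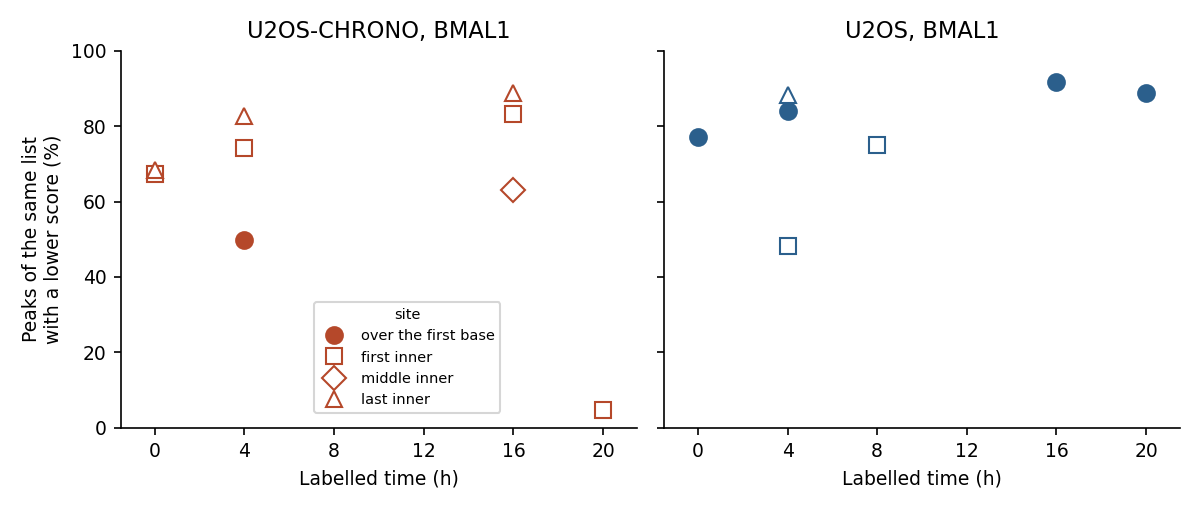
Place of each CIART peak within its own list, as the percentage of peaks with a lower score, against labelled time in hours for U2OS-CHRONO (left) and U2OS (right); filled circles are start-site peaks and open symbols the sites inside the gene. At 4 h all 3 recurrent sites were called in both lines, and at 12 h neither line had a peak.

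At 4 h, the 1 time with all 3 recurrent sites called in both lines, the order of the sites differed. In U2OS-CHRONO the last inner peak was highest (rank 1425), then the first inner peak (rank 2121), then the start-site peak (rank 4145). In U2OS the last inner peak was also highest (rank 619), but the start-site peak (rank 850) stood above the first inner peak (rank 2738). With 1 library each, no test of this order was possible.

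The differences between the lines at single sites did not pass a test. U2OS-CHRONO had 3 fewer times than U2OS with a peak over the first base, lower at 3 times and equal at 3 (two-sided exact paired permutation p = 0.25, adjusted over the 3 sites p = 0.625). For the first inner site it had 2 more times, higher at 3 and lower at 1 (exact permutation p = 0.625, adjusted p = 0.625). For the last inner site it had 2 more times, higher at 2 and lower at none (exact permutation p = 0.5, adjusted p = 0.625). With these ties, the smallest p values possible were 0.25, 0.125 and 0.5, so none of the 3 could have reached 0.05. The counts also rested on few libraries: without 0 or 16 h the first and last inner sites were each called at 1 more time in U2OS-CHRONO, likewise the first inner site without 20 h, and at the first base the difference was -2 without 0, 16 or 20 h. These tests were added after the peaks had been seen, because the planned window of 1 kb around the start took in both the start site and the first inner site. In that window U2OS-CHRONO had a peak at 4 times and U2OS at 5 (exact permutation p = 1, the smallest possible with 5 ties).

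Counted over the whole window, U2OS-CHRONO had 2, 3, 0, 0, 3 and 1 peaks at 0, 4, 8, 12, 16 and 20 h, and U2OS had 1, 3, 1, 0, 1 and 1. The means were 1.5 ± 1.38 and 1.17 ± 0.98 (SD, n = 6 times), within the spread (exact paired permutation p = 0.75, adjusted over 4 tests p = 1). With 3 tied times the smallest p possible was 0.25, so this test could not have passed and cannot decide whether the lines differ. The mean difference was 0.333 peaks, 0 without 16 h, 0.2 without 0 h, 0.6 without 8 h and 0 with lists of equal size. The peaks covered 1388, 1688, 0, 0, 1468 and 426 bases in U2OS-CHRONO and 387, 1274, 860, 0, 392 and 405 bases in U2OS. The mean difference of 275 ± 723 bases was also within the spread (exact paired permutation p = 0.3125, adjusted p = 0.625). With 1 tied time the smallest p possible here was 0.0625, so this test could not have passed either. The mean difference was 502 bases without 8 h, when U2OS had its shortest list, 130 without 0 h and 115 without 16 h. With lists of equal size it was 141 bases.

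The highest peak near the start lay inside the gene at all 4 U2OS-CHRONO times with a peak there and at 1 of 5 U2OS times. Within 1 kb of the start, that peak was centred 888, 880, 888 and 909 bases into the gene in U2OS-CHRONO at 0, 4, 16 and 20 h. In U2OS it was centred 98, 38.5, 83.5 and 107 bases before the gene at the same times, and 899 bases into it at 8 h, when U2OS-CHRONO had none. The 8 h value of U2OS thus lay among those of U2OS-CHRONO, and it has no partner in the paired comparison. Over the 4 shared times the mean difference was 973 ± 40.6 bases (SD, n = 4 times), in the same direction at 4 of 4. The exact paired permutation p was 0.125, the smallest that 4 pairs allow (adjusted p = 0.5). Without the pairing, with the 8 h value of U2OS included, the difference was 777 bases (exact permutation p = 0.0397 before adjustment). With the peak nearest to the start in place of the highest, the mean difference was 733 bases, since the start-site peak at 4 h then stood for U2OS-CHRONO.

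Such a difference in place was rare among other genes. Of 312 genes with a peak within 1 kb of the start in both lines at 4 or more times, 0.641% had a mean difference of 500 bases or more into the gene, which is 2 genes. CIART and PPAT, of purine synthesis, with 550 bases, made up that count. PPAT is named here after its value was seen. The median over the 312 genes was -2.4 bases, with quartiles of -27.8 and 32.8 bases. This limit of 500 bases was chosen with the CIART value known, so the count is a description and no test.

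**Figure D3:**
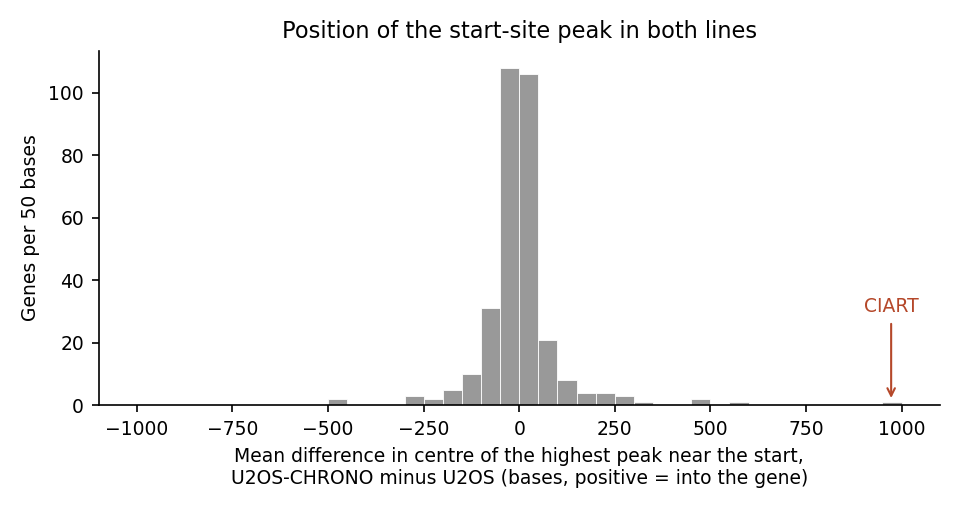
Mean difference in the centre of the highest peak within 1 kb of the gene start, U2OS-CHRONO minus U2OS (bases, positive into the gene), as a histogram of 312 genes in bins of 50 bases. The middle of the distribution lies near 0, and CIART lies at 973 bases.

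Most genes had more first-base peaks in U2OS-CHRONO, whose lists were longer. Of 2078 genes with a peak over the first base in at least 1 BMAL1 list, 1516 had one at more U2OS-CHRONO than U2OS times, 200 at equal numbers and 362 at fewer, with a median difference of 1 time. A difference of 3 or more additional U2OS times was seen in 15 of the 2078 (0.722%), CIART included. Only genes with a peak at 3 or more U2OS times could show it, so the share understates how often such genes did. For scale, 205 genes had a first-base peak at 4 or more U2OS times, as CIART did. A gain of 2 or more U2OS-CHRONO times off the first base, as at CIART, was seen in 3.16% of 2876 genes of 2.27 to 9.08 kb. That range was set by the length of CIART, and these genes were taken with or without BMAL1 peaks. The loss at the first base and the gain off it were seen together at CIART and at MBTD1, a chromatin reader named after its values were seen. That is 2 of 15842 genes (0.0126%). Only genes with a first-base peak at 3 or more U2OS times, a part of the 2078, could show the loss, so this share also understates. Both limits equal the CIART values, so CIART met them by choice, and these counts are descriptions and no test. MBTD1 had a first-base peak at 3 U2OS-CHRONO and 6 U2OS times. In the core clock list, with no length limit, the same gain off the first base was seen at 4 other genes. These were BHLHE40 (6 U2OS-CHRONO and 4 U2OS times), BHLHE41 (2 and 0), NFIL3 (2 and 0) and NPAS2 (3 and 1). In the other direction, CRY1, CRY2, PER3, NR1D1 and HLF had fewer such U2OS-CHRONO times.

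Several separate peaks over so short a gene were also uncommon. CIART had 3 peaks overlapping the gene in 3 BMAL1 lists, U2OS-CHRONO at 4 and 16 h and U2OS at 4 h. Of the 2876 genes of like length, 0.487% had 3 or more in at least 1 BMAL1 list. In 3 or more lists 0.174% did, which is 5 genes: CIART, DBP and BHLHE40 of the core clock list, SLC39A1, a zinc transporter, and TENT5B. The last 2 are named after their values were seen. DBP had 3 or more such peaks in 11 lists and BHLHE40 in 7. The limits of 3 peaks and 3 lists equal the CIART values, so its place among the 5 was fixed. The genes of like length were taken with or without BMAL1 peaks, and the share among bound genes was not computed. These shares are descriptions and no test.

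The Myc library had 2 peaks at CIART, both inside the gene and none over its start. The first inner peak spanned 150283265 to 150283612, with a score of 88.2 and rank 358 of 2487. The last inner peak spanned 150286430 to 150286988, with a score of 55.3 and rank 1503. Of the first, 96.6% to 100% of the bases were shared with each of the 6 BMAL1 peaks of that site, and the centres differed by at most 26.5 bases. The shared bases were 40.5% to 89.1% of those BMAL1 peaks, which were wider. Of the second, 98.9% to 100% were shared with each of the 4 BMAL1 peaks, and the centres differed by at most 80 bases. Here the shared bases were 78.2% to 98.2% of the BMAL1 peaks. These BMAL1 peaks included those of U2OS at both sites.

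Myc peaks over gene starts were found at other genes with BMAL1 there. Among the 205 genes with a BMAL1 peak over the first base at 4 or more U2OS times, 27.3% had a Myc peak over that base and 12.7% had one in the gene off it. Over all genes with a known start, 2.37% had a Myc peak over the first base, and 4.25% had one in the gene and none over the start, as CIART did. Myc and BMAL1 libraries differ in length and antibody, and 1 Myc library allows no test.

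If U2OS-CHRONO carries a human CHRONO construct, which the sources used here do not state, its reads could map within CIART. All 13 peaks off the first base lay inside the gene, between 469 and 4482 bases from its start. No peak lay in the other parts of the window, and the next peak of any list was 245 kb or more upstream and 34.2 kb or more downstream of the gene. The first and last inner sites were called in U2OS-CHRONO for both antibodies, but also in U2OS, both of them at 4 h and the first at 8 h. The middle inner site was called in 1 U2OS-CHRONO BMAL1 list, and in neither U2OS nor the Myc library. Exon positions were not used here, and whether construct reads form these peaks was not tested.

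Neighbouring genes shared none of these peaks within their bodies. C1orf54 and LOC124904414 lie upstream, LOC124904414 on the minus strand with 371 bases between it and CIART, and MRPS21, a mitochondrial ribosomal protein gene, and LOC105371434 lie downstream. Each had a peak in its body in 0 lists. The start-site peaks also lay within 1 kb of the start of LOC124904414, which is read away from CIART, and cannot be given to one of these genes alone.

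Set against the clock, CIART had fewer BMAL1 lists than the PER, CRY, BHLHE and NR1D repressor genes. In the gene or within 10 kb it had a peak at 4 U2OS-CHRONO and 5 U2OS times. Over all 20037 protein-coding genes, 21%, 26.3%, 9.21%, 13.4%, 28% and 22.2% had one in the U2OS-CHRONO lists from 0 to 20 h, and 13.1%, 18.1%, 1.52%, 6.85%, 10.9% and 18.6% in the U2OS lists. The 8 h list of U2OS, where the share was lowest, held the first inner peak of CIART. In all, 6.73% of genes had such a peak in 9 or more of the 12. Of the 20 core clock genes, 11 had one in all 12 BMAL1 lists: the repressors PER1, PER2, PER3, CRY1, CRY2, BHLHE40, BHLHE41, NR1D1 and NR1D2, and the activators DBP and TEF. HLF, a relative of DBP, had 10, CIART had 9, and RORA, a nuclear receptor, had 8. NPAS2, a CLOCK relative, had 4, BMAL1 3, CLOCK 2, the repressor NFIL3 2 and RORB none. In the Myc library 13 of the 20 had a peak, against 11.2% of all genes.

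At the first base itself, CIART had the largest shortfall in U2OS-CHRONO among the 19 core clock genes with a known start. PER2 and HLF each had a peak there at 4 U2OS-CHRONO and 6 U2OS times, and CRY1 and BHLHE40 each at 5 and 6. PER1, PER3, CRY2, NR1D1 and DBP had one at all 6 times of both lines. In the other direction, NR1D2 had one at 6 U2OS-CHRONO and 4 U2OS times, BHLHE41 at 5 and 3, TEF at 4 and 3 and BMAL1 at 1 and 0. CLOCK, NPAS2, NFIL3, RORA and RORB had none in either line. These counts are descriptions, and differences between genes were not tested.

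**Figure D4:**
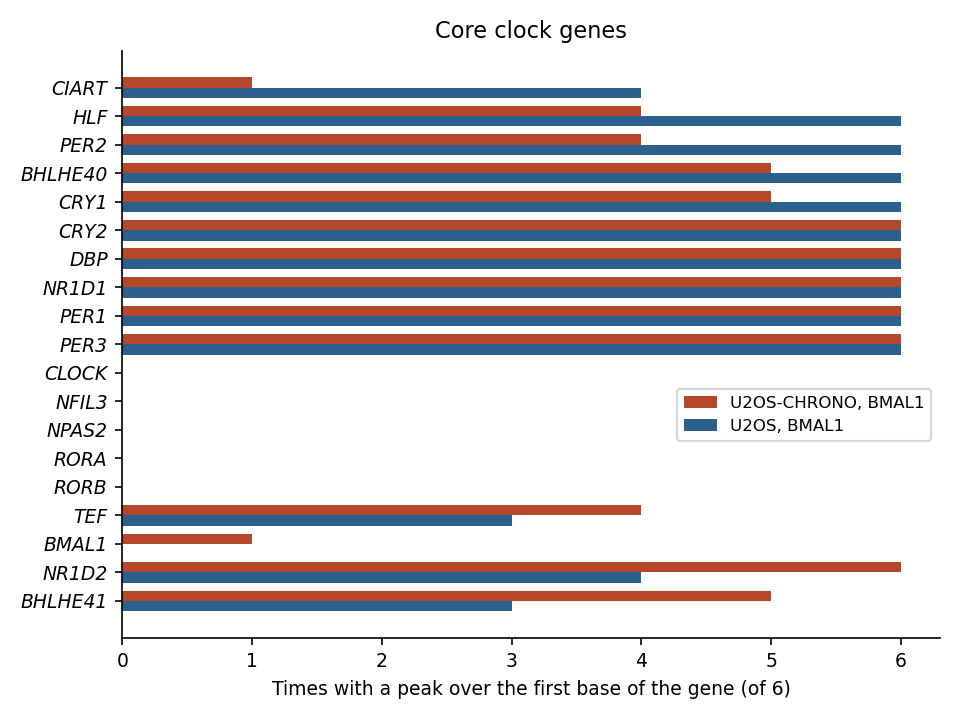
Number of times, of 6, with a BMAL1 peak over the first base of each core clock gene with a known start, for U2OS-CHRONO (upper bar) and U2OS (lower bar). CIART had 1 and 4, a larger gap than any other gene shown.

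E-box number and start peaks were set side by side over all promoters. Among the 22 genes with 3 or more CACGTG in the 250 bases before the start, 68.2% had a first-base BMAL1 peak at some U2OS-CHRONO time and 72.7% at some U2OS time. With 2 the shares were 60.4% and 56.4% of 101 genes, with 1 they were 36.9% and 24.8% of 1119 genes, and with none 9.08% and 4.67% of 14601 genes. CIART was one of 11 of the 22 with such a peak at 4 or more U2OS times. Of the 22, 16 had such a peak in at least 1 BMAL1 list. Among these, 5 had fewer U2OS-CHRONO times than U2OS times, 7 equal numbers and 4 more, beside 362, 200 and 1516 of the 2078 genes with such a peak overall. Over the 22, the differences ran from -3 to 2 times, and 2 genes, CIART among them, were at -3. The 16 and the 2078 were unlike in how often they were bound. Those at 4 or more U2OS times were 11 of the 16 and 205 of the 2078. A gene with a peak at all 6 U2OS times cannot have more in U2OS-CHRONO. Whether E-box number goes with the difference was not tested.

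**Figure D5:**
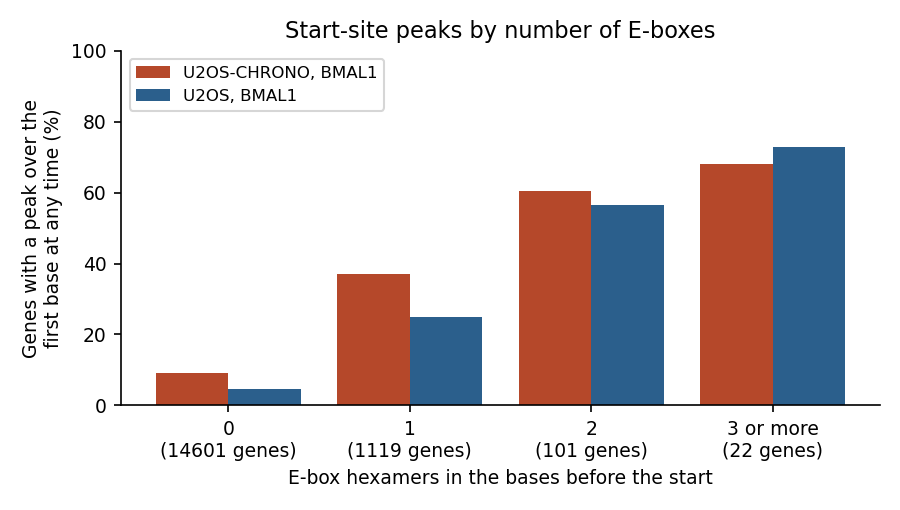
Percentage of genes with a BMAL1 peak over the first base at any time, in U2OS-CHRONO (left bars) and U2OS (right bars), by number of CACGTG in the 250 bases before the start. The share was lowest with no E-box and highest with 3 or more in both lines.

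The genes most like CIART over the 13 lists were taken as those with a peak in the gene or within 10 kb in the same lists. Genes that share a CIART peak were left out, and none of the others matched in all 13. In 12 of 13 lists 12 genes matched. The 5 of these closest in score percentile were HPS4, SRRD and TFIP11, near one another on chromosome 22, SIN3A, a corepressor scaffold, and ZNF131, a zinc finger gene, with mean absolute differences of 21.7 to 22.7 percentage points. Each had a peak at 4 U2OS-CHRONO and 4 U2OS times and in the Myc library, and each differed from CIART in the 8 h U2OS list alone. The match did not extend to the first base, where CIART had 1 U2OS-CHRONO and 4 U2OS times. There HPS4 and SRRD each had 2 and 2, TFIP11 had 0 and 1, and SIN3A and ZNF131 had none. Peaks common to the 3 genes on chromosome 22 were not counted apart. With a window of 5 kb, 3 of the 5 were named again.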

How the data were processed

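Each of 13 precipitated libraries had 1 peak list, deposited by the authors with coordinates and a peak score. No source defines the score; the lowest in any list was 50, and MACS by convention writes a transformed p-value in that column. Per the submitters' processing notes, hg38, MACS 1.4.2, HOMER 4.10.3 and bedtools were used, with no roles given. Aligner, control and read depth are unknown here. Scores were used for ranks and thresholds inside one list and never between lists.

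Gene positions were taken from RefSeq's gene table (GRCh38, the assembly of hg38; 20037 protein-coding genes on chromosomes), and start and strand from RefSeq's promoter table (15843 of them, 15842 on the same chromosome in both tables, 1 start per gene). Peaks overlapped with 1 shared base, and coordinates are 1-based. The 2 lines were paired by the 6 labelled times and tested with a two-sided exact sign-flip permutation of the differences. Benjamini-Hochberg adjustment ran over 4 planned tests (peak within 1 kb of the start, peaks in the window, bases covered, centre distance) and, separately, over 3 added ones. As alternatives, peaks scoring under 100 were dropped, lists were trimmed to equal size within a time, the pairing was removed, windows were varied and each time was left out. The members, lists and tests were chosen with earlier results of these data known. Named genes were CIART, genes in its window, the 20 core clock genes, of which 1 is not reported here, and the 5 genes most like CIART; PPAT, MBTD1, SLC39A1 and TENT5B were added after their values were seen. Counts of genes with a peak were equal to those of bedtools 2.31.1 in 13 of 13 lists. The software was Python 3.11.15 with matplotlib 3.10.9, SciPy 1.17.1 and NumPy 2.4.6.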

Additional observations from a re-analysis of the deposited data

Results flagged for a closer look

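Among 6 sets of values at CIART tested for 1 library far from the others of its line, 2 stood apart. A chance rate of about 1 in 20 sets is meant for continuous values. Here 1 flagged set held tied counts and the other held centres from 2 separate sites, so 2 of 6 cannot be read as an excess. Both flagged libraries were of U2OS. U2OS at 4 h had 3 peaks at CIART, against 0 or 1 at its other times, its gap to the nearest other time being 0.667 of the range. In U2OS at 8 h, the highest peak within 1 kb of the start was centred 899 bases into the gene, with a gap of 0.932 of the range. That list was the shortest, with 337 peaks, and its median peak width of 743 bases was the greatest of the 13. At both times a site inside the gene was called that U2OS lacked at 0, 12, 16 and 20 h.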

How the results depend on the processing

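No alternative reversed a difference between the lines at CIART. For the 1 kb start window, the first base, the last inner site and the centre distance, no time went the other way. Leaving out a time therefore could not reverse these. Leaving out each time in turn, the difference in number of times with a peak within 1 kb of the start ran from -1 to 0 (0 without 8 h), and the difference in peaks per list from 0 to 0.6 (0 without 16 h). At equal list sizes the difference in peaks per list was also 0. With a start window of 500 bases the difference within the window was -4 times. This window still took in the 8 h first inner peak of U2OS, which began 469 bases into the gene. It left out those of U2OS-CHRONO, which began at 548 bases or more. With the 1 kb window at equal list sizes the difference was -2. Without the pairing by labelled time, the difference in peak place was 777 bases over 4 U2OS-CHRONO and 5 U2OS times. Its exact permutation p was 0.0397 before adjustment, against 0.125 with the pairing. The threshold of 0.05 was set for adjusted p-values, and this one was not adjusted over the 4 planned tests, so it does not count as passing. The other 6 results stayed above 0.05 before adjustment in every alternative. For the paired alternatives this was fixed in advance. Both lines lacked a CIART peak at 12 h, so the smallest p these allowed was 0.0625. The sites stayed 4 under both other ways of joining peaks, and the 10 lists with a peak stayed 10 with a 5 kb window or the gene alone and were 7 with a score of at least 100. With that score the difference at the first base was -4 times, at the first inner site 3 and at the last inner site 2. At equal list sizes these were -3, 1 and 2. Unknown depth limits all statements that a site had no peak.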
